A study of Homo sapiens with 12 samples.

Results

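Angiogenic factors are secreted or cell-surface proteins that act on blood vessels, and 9 genes of this kind were followed here: VEGFA, VEGFB, VEGFC, PGF, ADM, ANGPTL4, ANG, EFNA1 and EFNA3. They were taken by gene symbol from the 25369 genes of the count and RPKM tables, and all 9 symbols were found. The libraries were poly(A)+ RNA-seq of RKO cells (a colon carcinoma line), A549 cells (a lung adenocarcinoma line) and H460 cells (a lung large cell carcinoma line), kept in normoxia or in 1% O2 for 24 h. Each of the 6 groups of line and oxygen condition had 2 libraries, which the series describes as independent biological replicates. RKO and A549 cells were grown in DMEM and H460 cells in RPMI, so line and medium cannot be told apart in comparisons with H460. Each group was 1 established line in culture, and the labels name no genetic change or drug in any of them.

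Low oxygen stabilizes the hypoxia-inducible factors (HIFs), transcription factors that bind a short core motif and raise the transcription of many genes, VEGFA being the best known among the angiogenic ones. VEGFA, VEGFB and PGF are ligands of the receptor FLT1, VEGFA also binds KDR, and VEGFC binds FLT4 and KDR. ADM is a vasodilator peptide read by CALCRL together with a RAMP protein, ANGPTL4 is a secreted inhibitor of lipoprotein lipase, ANG is a secreted ribonuclease, and the ephrins EFNA1 and EFNA3 are membrane-anchored ligands of EPHA receptors.

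Because 4 of these genes, ADM, ANGPTL4, EFNA3 and PGF, differed most in how the lines responded, the 250 bases before their annotated start sites are shown, from RefSeq on GRCh38.p14 and read 5′ to 3′ on the strand of the gene. The windows are chr11:10304823-10305072 (plus strand) for ADM, chr19:8363905-8364154 (plus strand) for ANGPTL4, chr1:155078587-155078836 (plus strand) for EFNA3 and chr14:74955598-74955847 (minus strand) for the start of PGF whose window holds the motif, the other listed start of PGF having none. Capitals mark the HIF core motif, searched as ACGTG and GCGTG on both strands, so that a motif on the opposite strand reads CACGT or CACGC.
ADM: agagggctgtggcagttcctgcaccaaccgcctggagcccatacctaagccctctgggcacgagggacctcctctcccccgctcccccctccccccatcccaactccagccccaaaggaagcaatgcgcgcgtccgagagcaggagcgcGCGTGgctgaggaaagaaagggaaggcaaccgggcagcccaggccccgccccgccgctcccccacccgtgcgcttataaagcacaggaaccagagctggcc
ANGPTL4: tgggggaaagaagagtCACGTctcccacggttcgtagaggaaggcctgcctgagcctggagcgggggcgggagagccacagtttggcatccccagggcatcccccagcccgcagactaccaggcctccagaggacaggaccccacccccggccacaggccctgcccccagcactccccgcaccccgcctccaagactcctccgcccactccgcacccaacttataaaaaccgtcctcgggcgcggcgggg
EFNA3: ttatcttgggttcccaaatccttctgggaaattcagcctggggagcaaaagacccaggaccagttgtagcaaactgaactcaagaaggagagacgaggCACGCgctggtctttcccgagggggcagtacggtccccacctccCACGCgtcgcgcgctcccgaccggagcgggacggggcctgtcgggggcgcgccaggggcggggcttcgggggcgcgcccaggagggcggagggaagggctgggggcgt
PGF: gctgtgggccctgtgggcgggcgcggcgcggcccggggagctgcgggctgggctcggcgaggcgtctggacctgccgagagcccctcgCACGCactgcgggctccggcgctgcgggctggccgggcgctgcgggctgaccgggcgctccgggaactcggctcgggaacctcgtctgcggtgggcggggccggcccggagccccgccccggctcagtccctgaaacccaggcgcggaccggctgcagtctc

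ADM held 1 motif, on its own strand, starting 101 bases before the start site. ANGPTL4 held 1, on the opposite strand, 234 bases before it, and EFNA3 held 2, on the opposite strand, 152 and 108 bases before it. PGF held 1 on the opposite strand, 162 bases before the start site. VEGFB, VEGFC, ANG and EFNA1 also held 1 each, so 8 of the 8 members with an entry (VEGFA has none) had the motif in at least 1 window, and 8 of their 11 windows did. These letters are common, since 43.2% of all 35116 windows of the same length held them. The match is a description of the letters and does not show a bound site.

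The libraries held 27350424 to 41757584 counted reads. Levels below are RPKM after 1 TMM scaling over all 12 libraries, given with the SD of the 2 replicates where a mean is shown. TMM factors were 0.786 and 0.829 in the H460 hypoxia libraries and 0.963 to 1.12 in the other 10. Endothelial markers were near 0, their 6 genes summing to at most 0.106 RPKM in any library with CLDN5 at 0 reads throughout, and the immune marker PTPRC was at most 0.0141 RPKM. Of 5 epithelial markers, KRT8 and KRT18 were above 1 RPKM in every group, EPCAM in RKO and A549, KRT19 in H460 and CDH1 in A549, CDH1 being near 0 in RKO (0.016 RPKM in each condition) and at most 0.109 RPKM on average in H460. Of the tissue markers, RKO cells expressed CDX2 but had no reads of CDX1 or VIL1, A549 cells expressed NAPSA (2.57 and 3.29 RPKM on average) with NKX2-1, SFTPB and SFTPC near 0, and H460 cells had no reads of SFTPB and reached 1 RPKM of NKX2-1 in hypoxia alone. The fibroblast list of 4 genes summed to 9.02 and 15.1 RPKM in A549 normoxia and to 22.9 and 73.5 RPKM in A549 hypoxia, nearly all of it COL1A1, with at most 3.94 RPKM in the other lines. Its part in the A549 results was not tested. In bulk RNA, fewer cells expressing a gene and less RNA per cell cannot be told apart.

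A call required a change of more than 1.5-fold together with an adjusted p below 0.1 (edgeR quasi-likelihood test, Benjamini-Hochberg over all tested genes). In RKO cells 5 of the 8 tested members were up-regulated, against 18.8% of all tested genes. In A549 cells 3 of 9 were up-regulated, against 2.22% of all tested genes. In H460 cells 8 of 9 were up-regulated, against 24.6%. No member was called lower in any line, in edgeR with TMM factors or in DESeq2, against 15.1%, 0.456% and 27.3% of all genes in edgeR, and the members at an unadjusted p under 0.05 numbered 6, 5 and 8, all of them higher. PGF in H460 cells was called lower without TMM factors and in limma with a pseudocount of 0.1. VEGFA, ANGPTL4 and ANG were up-regulated in all 3 lines, a call made for 0.977% of the 11873 genes tested in all of them. The members had a median log2 fold change of 1.20 (RKO), 0.67 (A549) and 1.75 (H460), and all tested genes had one of 0.01, -0.01 and -0.04.

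**Figure D1:**
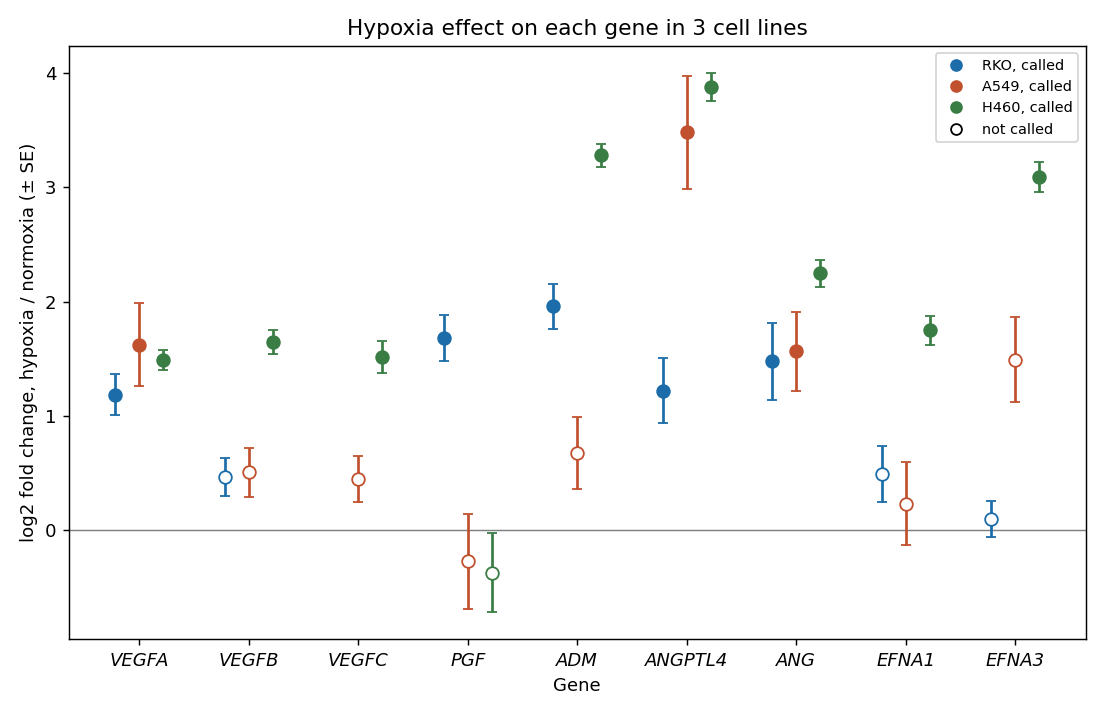
The log2 fold change of each gene, hypoxia over normoxia, with its standard error, in RKO (blue), A549 (red) and H460 (green) cells. Filled points passed the call and open points did not. ANGPTL4, ADM and EFNA3 stand highest in H460 (3.88, 3.28 and 3.09), PGF is filled in RKO alone, and VEGFC in RKO has no point because it was not tested there.

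Replicates with the same number deviated together in every line, so the fit with the replicate number as a block was run as well. It changed 2 calls among the effects of the members, both in A549 cells, where ADM and EFNA3 became called and 5 of 9 members were up-regulated, against 8.34% of all genes in the same fit. Replicates differed most in A549, where the chi-square of the counts over genes, divided by its degrees of freedom, was 72.0 in normoxia and 68.5 in hypoxia, against 9.60 to 45.4 in the other groups. Every member was higher in hypoxia replicate 2 than in hypoxia replicate 1 of that line, by 1.15 times for VEGFC to 3.13 times for ANGPTL4, and COL1A1 moved with them, at 21.9 RPKM in replicate 1 and 72.4 RPKM in replicate 2. Over single left-out A549 libraries, the A549 log2 fold change of VEGFA ranged from 0.91 to 2.09. That of ANGPTL4 ranged from 2.45 to 4.07 and that of ANG from 1.03 to 1.95. Such fits leave 1 library in a group, and the set of called members changed between them.

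**Figure D2:**
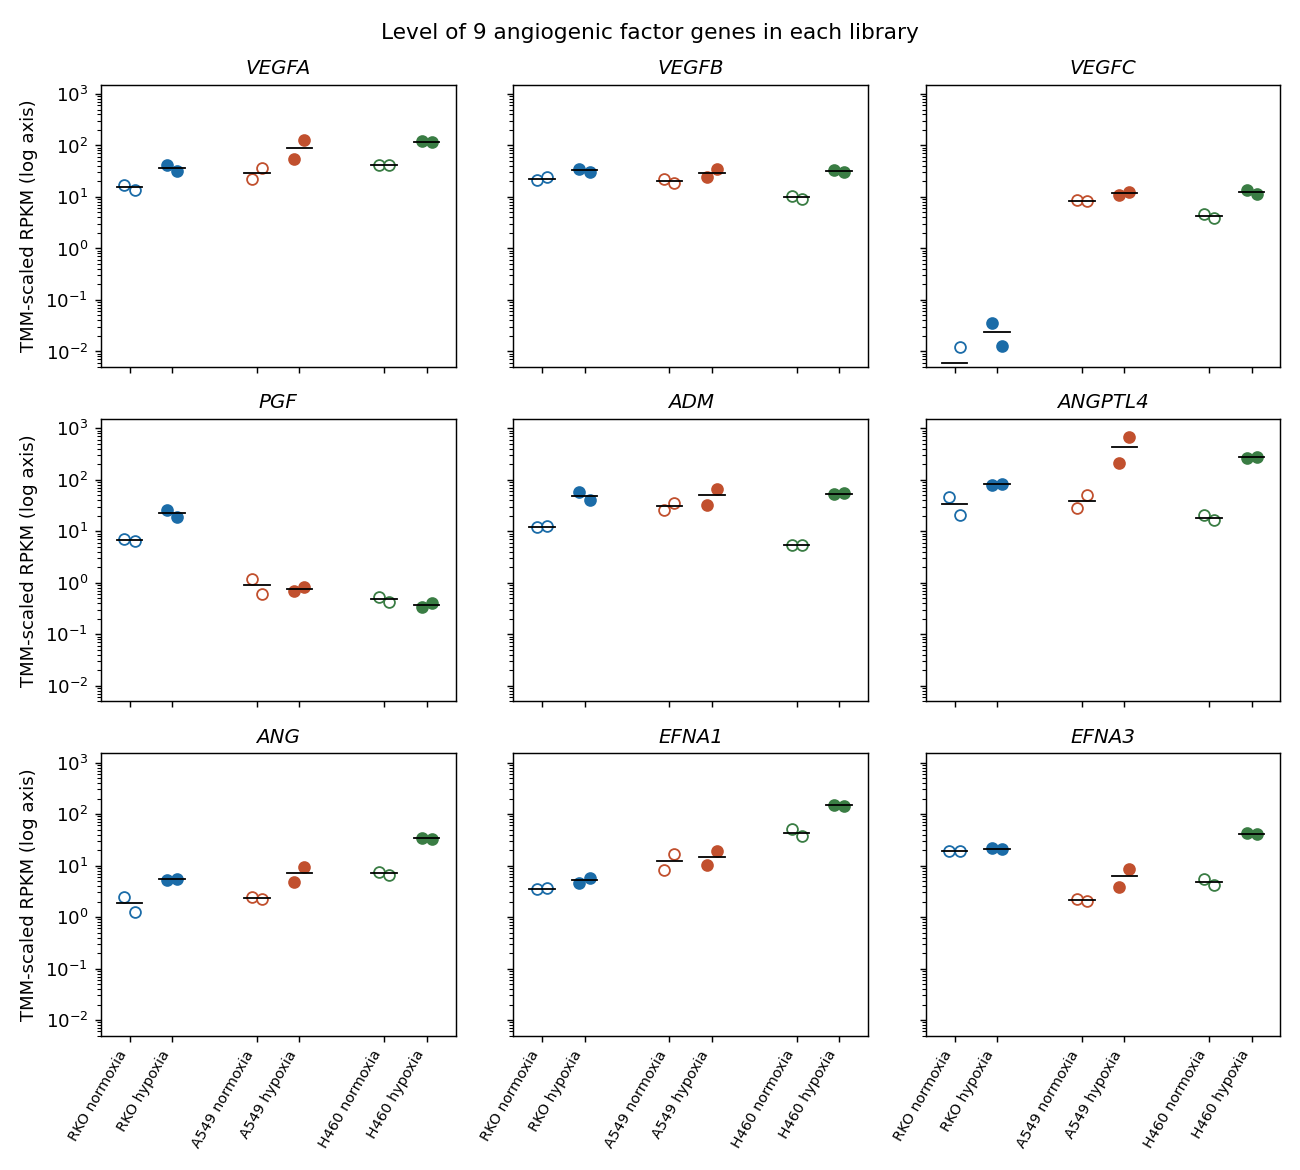
Levels of the 9 genes in each library, as TMM-scaled RPKM on a log axis, in normoxia (open points) and hypoxia (filled points), with a bar at the mean of the 2 replicates. VEGFC is under 0.04 RPKM in all RKO libraries, and its RKO normoxia replicate 1, at 0 reads, has no point. PGF stands high in RKO alone, and the 2 A549 hypoxia libraries lie apart for ANGPTL4 (214 and 671 RPKM).

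VEGFA, the main ligand of vessel sprouting (GRCh37, chr6:43737946-43754223, plus strand), was up-regulated in all 3 lines, by 2.27-fold in RKO, 3.08-fold in A549 and 2.80-fold in H460. In RKO cells its level was 17.2 and 13.9 RPKM in normoxia and 41.8 and 31.9 RPKM in hypoxia. The A549 libraries had 22.1 and 35.8 RPKM in normoxia and 54.6 and 126 RPKM in hypoxia. The H460 libraries had 41.7 and 42.0 RPKM in normoxia and 120 and 117 RPKM in hypoxia. Both hypoxia libraries lay above both normoxia libraries in each line. The log2 fold changes were 1.18 ± 0.18 (SE, adjusted p = 0.000745) in RKO, 1.62 ± 0.36 (adjusted p = 0.0783) in A549 and 1.49 ± 0.09 (adjusted p = 3.87e-08) in H460. Without A549 hypoxia replicate 2 the A549 value was 0.91. The A549 call was lost without A549 normoxia replicate 1 (adjusted p = 0.113), without TMM factors (0.140) and in limma on log2 RPKM (0.170 and 0.207 with pseudocounts of 0.1 and 1).

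The size of the VEGFA effect was not distinguishable between lines at this replication. The joint fit used for this comparison has a shared estimate of the spread for all lines, A549 included. The differences in log2 fold change were -0.39 (95% interval -1.30 to 0.52) for RKO minus A549, -0.25 (-1.16 to 0.65) for RKO minus H460 and 0.14 (-0.77 to 1.05) for A549 minus H460. Its level was lower in RKO than in either lung line by a called amount in both conditions, and A549 and H460 were not called different in normoxia or in hypoxia. Measured against the genes tested in the series, VEGFA went from above 70.4% of them to above 88.4% in RKO cells.

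VEGFB, a ligand of FLT1 (chr11:64002056-64006736, plus strand), was up-regulated in H460 cells and not called in the others. Its level in RKO cells was 21.1 and 24.5 RPKM in normoxia and 35.2 and 30.3 RPKM in hypoxia. The A549 level was 22.1 and 19.0 RPKM in normoxia and 24.7 and 34.2 RPKM in hypoxia. The H460 level was 10.6 and 9.27 RPKM in normoxia and 32.8 and 30.1 RPKM in hypoxia. H460 thus began lowest and, after TMM scaling, ended in the range of the other lines. Without TMM scaling, the deposited RPKM in hypoxia was 25.8 and 24.9 in H460. It was 36.6 and 34.0 in RKO and 24.7 and 32.9 in A549. The log2 fold change was 1.65 ± 0.10 (SE, adjusted p = 7.17e-08) in H460, 0.46 ± 0.16 (adjusted p = 0.0458, fold 1.38) in RKO and 0.50 ± 0.21 (adjusted p = 0.280) in A549. The RKO value passed the adjusted p and missed the fold minimum, and the A549 value was 0.71 and called without A549 hypoxia replicate 1 (adjusted p = 0.0847) and 0.26 and not called without A549 hypoxia replicate 2. The difference in log2 fold change was -1.14 ± 0.25 (SE) both for RKO minus H460 (adjusted p = 0.00371) and for A549 minus H460 (adjusted p = 0.00419).

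In hypoxia the VEGFB levels of the 3 lines did not differ by a called amount, with log2 differences of 0.16 (95% interval -0.21 to 0.52) for RKO minus A549, 0.06 (-0.31 to 0.43) for RKO minus H460 and -0.09 (-0.46 to 0.28) for A549 minus H460. Over the edgeR, DESeq2 and limma alternatives the RKO minus H460 difference reached 0.48, with adjusted p as low as 0.0161. It stayed under the fold minimum. In normoxia RKO and A549 cells both stood above H460 cells by a called amount.

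VEGFC, the ligand associated with lymphatic vessels (chr4:177604685-177713899, minus strand), was absent or nearly so from RKO cells. The RKO libraries held 0 and 1 reads in normoxia and 3 and 1 in hypoxia, at or under the floor of 3 counts per library, so no fold is given. VEGFC did not pass the filter of 0.5 CPM in RKO, so its hypoxia effect was not tested there. Its RKO level did enter the joint fit of all lines. In A549 cells its level was 8.68 and 8.39 RPKM in normoxia and 10.9 and 12.6 RPKM in hypoxia. In H460 cells it was 4.74 and 3.89 RPKM in normoxia and 13.5 and 11.4 RPKM in hypoxia. Its log2 fold change was 1.51 ± 0.14 (SE, adjusted p = 1.56e-06) in H460 and 0.45 ± 0.20 (adjusted p = 0.313) in A549, a difference of -1.07 ± 0.29 for A549 minus H460 (adjusted p = 0.0141). A549 cells held more VEGFC than H460 cells in normoxia by a called amount, and in hypoxia the log2 difference was -0.08 (95% interval -0.51 to 0.35).

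PGF, placenta growth factor (chr14:75408533-75422467, minus strand), was the member found mainly in RKO cells. There its level was 6.94 and 6.53 RPKM in normoxia and 26.3 and 18.8 RPKM in hypoxia. In A549 cells it was 1.18 and 0.603 RPKM in normoxia and 0.677 and 0.822 RPKM in hypoxia. The H460 libraries had 0.538 and 0.414 RPKM in normoxia and 0.331 and 0.400 RPKM in hypoxia. Both lung lines were below every RKO library, and their conditions overlapped in A549 and did not in H460, where both hypoxia values were the lower. PGF was up-regulated in RKO (log2 fold change 1.68 ± 0.20, SE, adjusted p = 0.000238). It was not called in A549 (-0.27 ± 0.42, adjusted p = 0.788) or in H460 (-0.37 ± 0.35, adjusted p = 0.350), on 15 to 29 reads a library in H460. Without TMM factors it was called lower in H460 (-0.72, adjusted p = 0.0822), and so it was in limma with a pseudocount of 0.1 (-0.59, adjusted p = 0.0363). The RKO effect exceeded the A549 effect by a log2 difference of 2.01 ± 0.40 (SE, adjusted p = 0.0101) and the H460 effect by 2.10 ± 0.47 (adjusted p = 0.00455).

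As shares of the summed RPKM of the VEGF family (VEGFA, VEGFB, VEGFC, FIGF and PGF), the lines made different mixtures. In RKO normoxia VEGFB held 46.6% and 54.5% and VEGFA 38.0% and 30.9% of the family, and in hypoxia VEGFA held 40.4% and 39.4%, VEGFB 34.1% and 37.4% and PGF 25.4% and 23.2%. In A549 cells VEGFA went from 40.9% and 56.1% to 60.1% and 72.6%. In H460 cells it held 72.0% and 74.8% in normoxia and 71.9% and 73.7% in hypoxia. The share of VEGFA thus overlapped between conditions in H460 cells and did not in the other lines. The family sum went in mean from 45.0 ± 0.14 to 92.2 ± 15.8 RPKM in RKO (SD, n = 2), from 59.0 ± 6.87 to 132 ± 58.5 RPKM in A549 and from 57.0 ± 1.22 to 163 ± 5.14 RPKM in H460. These shares were not tested.

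**Figure D3:**
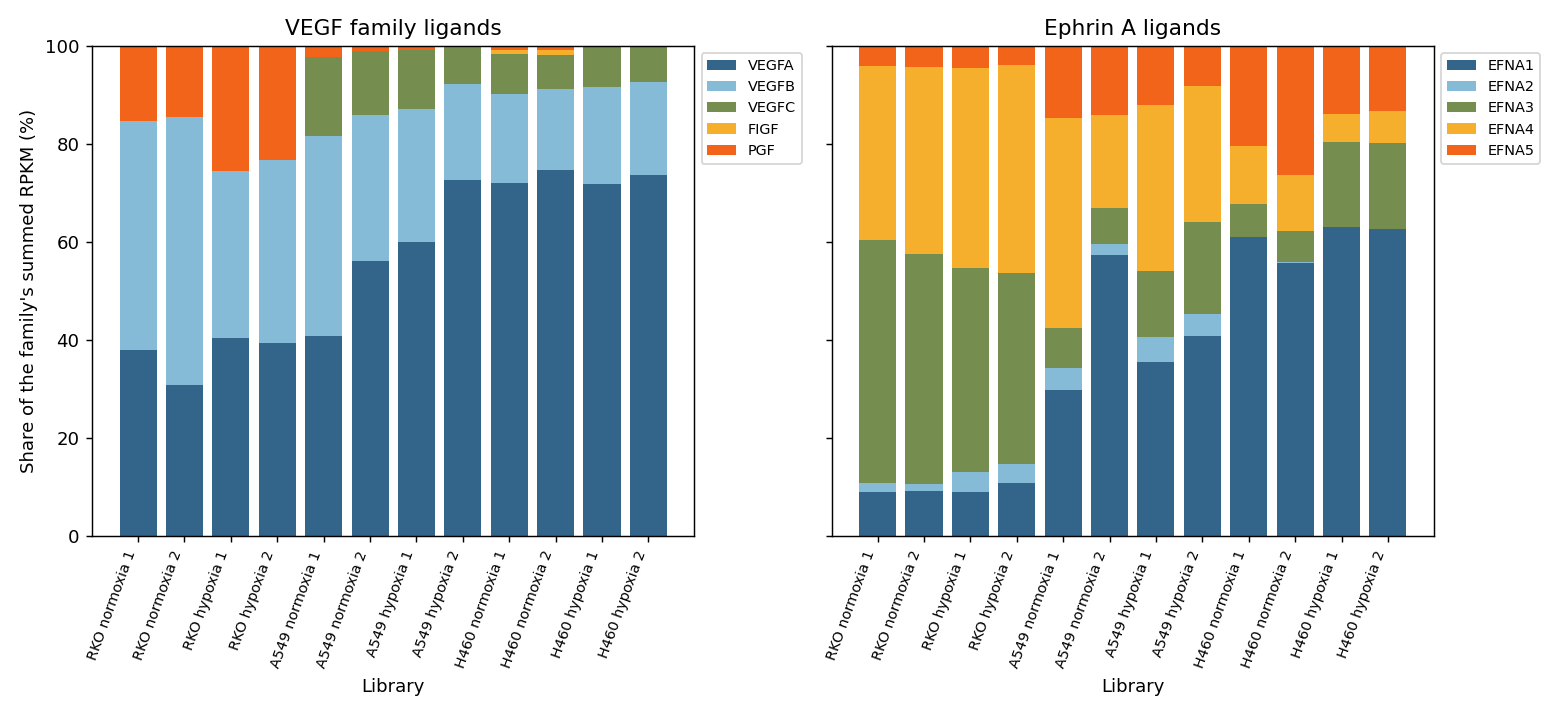
Share of each ligand in the summed RPKM of its family, in percent, for each of the 12 libraries, with the VEGF family on the left and the ephrin A ligands on the right. VEGFA takes over 70% of the VEGF family in all 4 H460 libraries, PGF is visible mainly in RKO, and EFNA3 goes from under 7% to over 17% of the ephrin A ligands in H460.

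ADM, adrenomedullin (chr11:10326642-10328923, plus strand), was strongly up-regulated in RKO and H460 cells. In RKO cells its level was 11.9 and 12.5 RPKM in normoxia and 58.6 and 40.2 RPKM in hypoxia. The A549 libraries had 26.1 and 35.5 RPKM in normoxia and 32.1 and 67.4 RPKM in hypoxia. The H460 level was 5.51 and 5.36 RPKM in normoxia and 52.0 and 54.6 RPKM in hypoxia. The conditions overlapped in A549 cells alone, which started highest. The log2 fold change was 1.96 ± 0.20 (SE, adjusted p = 0.000122) in RKO, 0.67 ± 0.31 (adjusted p = 0.324) in A549 and 3.28 ± 0.10 (adjusted p = 9.33e-10) in H460. With the replicate block the A549 value was 0.60 and called (adjusted p = 0.00684), and without A549 hypoxia replicate 1 it was 1.10 and called (adjusted p = 0.00123). Without A549 hypoxia replicate 2 it was 0.056 and not called.

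All 3 pairs of lines were called different in the ADM effect. The log2 difference was 1.33 ± 0.38 (SE, adjusted p = 0.0493) for RKO minus A549, -1.27 ± 0.39 (adjusted p = 0.0255) for RKO minus H460 and -2.60 ± 0.40 (adjusted p = 0.000482) for A549 minus H460. The RKO and A549 call was lost without RKO normoxia replicate 1 (adjusted p = 0.147) or 2 (0.104), RKO hypoxia replicate 1 (0.167) or A549 normoxia replicate 2 (0.129), and the RKO and H460 call without RKO hypoxia replicate 2 (0.108) and in limma with a pseudocount of 1 (0.141). In hypoxia the means were 49.4 ± 13.03, 49.8 ± 24.9 and 53.3 ± 1.84 RPKM (SD, n = 2) in RKO, A549 and H460, after 12.2 ± 0.393, 30.8 ± 6.67 and 5.43 ± 0.103 RPKM in normoxia. The log2 differences between the hypoxia levels were -0.01 (95% interval -0.59 to 0.57) for RKO minus A549, -0.11 (-0.69 to 0.47) for RKO minus H460 and -0.10 (-0.68 to 0.48) for A549 minus H460, none of them called. Without A549 hypoxia replicate 2 these became 0.62 (adjusted p = 0.0303) for RKO minus A549 and -0.73 (adjusted p = 0.0126) for A549 minus H460, both called, so the likeness of the A549 mean rests on that library. In normoxia all 3 pairs were called different.

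ANGPTL4 (chr19:8429011-8439259, plus strand) had the largest fold of the members in A549 and H460 cells. In RKO cells its level was 46.0 and 20.9 RPKM in normoxia and 79.7 and 82.9 RPKM in hypoxia. The A549 level was 27.8 and 50.4 RPKM in normoxia and 214 and 671 RPKM in hypoxia. In H460 cells it was 20.3 and 16.3 RPKM in normoxia and 260 and 283 RPKM in hypoxia. The hypoxia libraries lay above the normoxia libraries in each line, and the A549 hypoxia libraries differed by 3.13 times between themselves. The fold was 2.33 in RKO (log2 1.22 ± 0.28, SE, adjusted p = 0.00702), 11.2 in A549 (3.48 ± 0.49, adjusted p = 0.0130) and 14.7 in H460 (3.88 ± 0.12, adjusted p = 9.33e-10). In A549 cells ANGPTL4 ranked 15 of 14251 tested genes by fold change, and in H460 cells 84 of 14080. Without A549 hypoxia replicate 2 the A549 log2 fold change was still 2.45 and called.

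The ANGPTL4 effect was smaller in RKO than in H460 cells (log2 difference -2.61 ± 0.61, SE, adjusted p = 0.00602) and than in A549 cells (-2.22 ± 0.61, adjusted p = 0.0402). The latter call was lost in limma (adjusted p = 0.111 and 0.119) and without RKO normoxia replicate 1 (0.193), RKO hypoxia replicate 1 (0.109) or A549 hypoxia replicate 2 (0.127). A549 and H460 effects differed by -0.39 (95% interval -1.69 to 0.90), and without A549 hypoxia replicate 2 by -1.44 (adjusted p = 0.0389). RKO normoxia replicates differed as well, the second being 0.453 times the first, and the RKO log2 fold change was 1.91 without the first and 0.76 without the second.

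ANG, angiogenin (chr14:21152336-21162345, plus strand), was up-regulated in all 3 lines. In RKO cells its level was 2.49 and 1.23 RPKM in normoxia and 5.23 and 5.55 RPKM in hypoxia. In A549 cells it was 2.50 and 2.22 RPKM in normoxia and 4.85 and 9.34 RPKM in hypoxia. The H460 libraries had 7.47 and 6.58 RPKM in normoxia and 34.8 and 32.5 RPKM in hypoxia. Conditions did not overlap in any line, and H460 hypoxia stood above every other group. Its log2 fold change was 1.48 ± 0.34 (SE, adjusted p = 0.00638) in RKO, 1.56 ± 0.35 (adjusted p = 0.0760) in A549 and 2.25 ± 0.11 (adjusted p = 1.30e-08) in H460. The A549 call was lost without A549 normoxia replicate 2 (adjusted p = 0.115) or hypoxia replicate 2 (log2 fold change 1.03, adjusted p = 0.394), without TMM factors (0.124) and in limma (0.136 and 0.182).

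No pair of lines was called different in the ANG effect, with log2 differences of -0.04 (95% interval -1.004 to 0.918) for RKO minus A549, -0.72 (-1.66 to 0.21) for RKO minus H460 and -0.68 (-1.60 to 0.24) for A549 minus H460. The last was called without A549 hypoxia replicate 2 (-1.22, adjusted p = 0.0334), and the middle one without RKO normoxia replicate 2 (-1.14, adjusted p = 0.0633). ANG shares its strand and its 5′ region with RNASE4 (chr14:21152372-21168761), a second secreted ribonuclease, so the counting could have dropped or divided reads of the shared part, and their values are not independent. RNASE4 was up-regulated in each line as well, by 1.36 ± 0.27 on the log2 scale in RKO (SE, adjusted p = 0.00324), 2.16 ± 0.38 in A549 (adjusted p = 0.0297) and 3.21 ± 0.18 in H460 (adjusted p = 2.96e-08). It rose from 12.3 and 7.93 RPKM to 107 and 81.4 RPKM in H460.

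EFNA1 (chr1:155100349-155107386, plus strand), an ephrin A ligand, was up-regulated in H460 cells. In RKO cells its level was 3.46 and 3.64 RPKM in normoxia and 4.63 and 5.77 RPKM in hypoxia. The A549 libraries had 8.15 and 16.4 RPKM in normoxia and 10.3 and 18.9 RPKM in hypoxia. The H460 level was 50.6 and 37.0 RPKM in normoxia and 153 and 145 RPKM in hypoxia. The conditions overlapped in A549 cells, where replicate 2 was 2.02 times replicate 1 in normoxia and 1.84 times in hypoxia. The log2 fold change was 1.75 ± 0.13 (SE, adjusted p = 2.23e-07) in H460, 0.49 ± 0.25 (adjusted p = 0.141) in RKO and 0.23 ± 0.36 (adjusted p = 0.796) in A549. Without RKO hypoxia replicate 1 the RKO value was 0.69 and called (adjusted p = 0.0697). The H460 effect was larger than that in A549 (log2 difference -1.52 ± 0.42 for A549 minus H460, adjusted p = 0.0157), and this difference was -0.93 without A549 normoxia replicate 2 (adjusted p = 0.0756). For RKO minus H460 the difference was -1.22 ± 0.43 (adjusted p = 0.0474), a call lost in 8 alternatives, among them library size only (0.169) and limma (0.165 and 0.126). EFNA1 ranked above 97.3% of tested genes by level in H460 hypoxia.

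EFNA3 (chr1:155051348-155060014, plus strand) was unlike EFNA1 in where it was high at the start. In RKO cells its level was 19.0 and 18.8 RPKM in normoxia and 21.4 and 20.7 RPKM in hypoxia. The A549 level was 2.28 and 2.09 RPKM in normoxia and 3.87 and 8.63 RPKM in hypoxia. In H460 cells it was 5.57 and 4.13 RPKM in normoxia and 42.3 and 40.7 RPKM in hypoxia. RKO cells thus stood highest in normoxia and H460 cells in hypoxia. Its log2 fold change was 3.09 ± 0.13 (SE, adjusted p = 3.96e-09) in H460, 1.49 ± 0.37 (adjusted p = 0.103) in A549 and 0.10 ± 0.16 (adjusted p = 0.659, 95% interval -0.25 to 0.45) in RKO. The A549 value was called with the replicate block (1.39, adjusted p = 0.000228), in DESeq2 (1.49, adjusted p = 0.00371), in the joint fit of all libraries (1.51, adjusted p = 0.00725), with no filter on low counts (1.48, adjusted p = 0.0194) and without A549 hypoxia replicate 1 (1.95, adjusted p = 1.24e-05). Without A549 hypoxia replicate 2 it was 0.82 and not called (adjusted p = 0.773).

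All 3 pairs of lines were called different in the EFNA3 effect. The log2 difference was -2.94 ± 0.38 (SE, adjusted p = 0.000123) for RKO minus H460, -1.59 ± 0.39 (adjusted p = 0.00835) for A549 minus H460 and -1.35 ± 0.38 (adjusted p = 0.0457) for RKO minus A549. The last was lost in limma (adjusted p = 0.103 and 0.140) and without RKO normoxia replicate 1 (0.122), RKO hypoxia replicate 1 (0.1003) or A549 hypoxia replicate 2 (0.124). Of the summed RPKM of EFNA1 to EFNA5, EFNA3 took 6.72% and 6.22% in H460 normoxia and 17.5% and 17.6% in hypoxia, and EFNA1 61.0% and 55.7% and then 63.0% and 62.6%. In RKO cells EFNA3 took 49.6% and 46.9% in normoxia and 41.6% and 39.0% in hypoxia, and its neighbor EFNA4 (chr1:155036213-155042029) took 35.5% and 38.2% and then 40.9% and 42.4%. EFNA4 was called in H460 alone (log2 fold change 0.72 ± 0.14, SE, adjusted p = 0.000767).

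**Figure D4:**
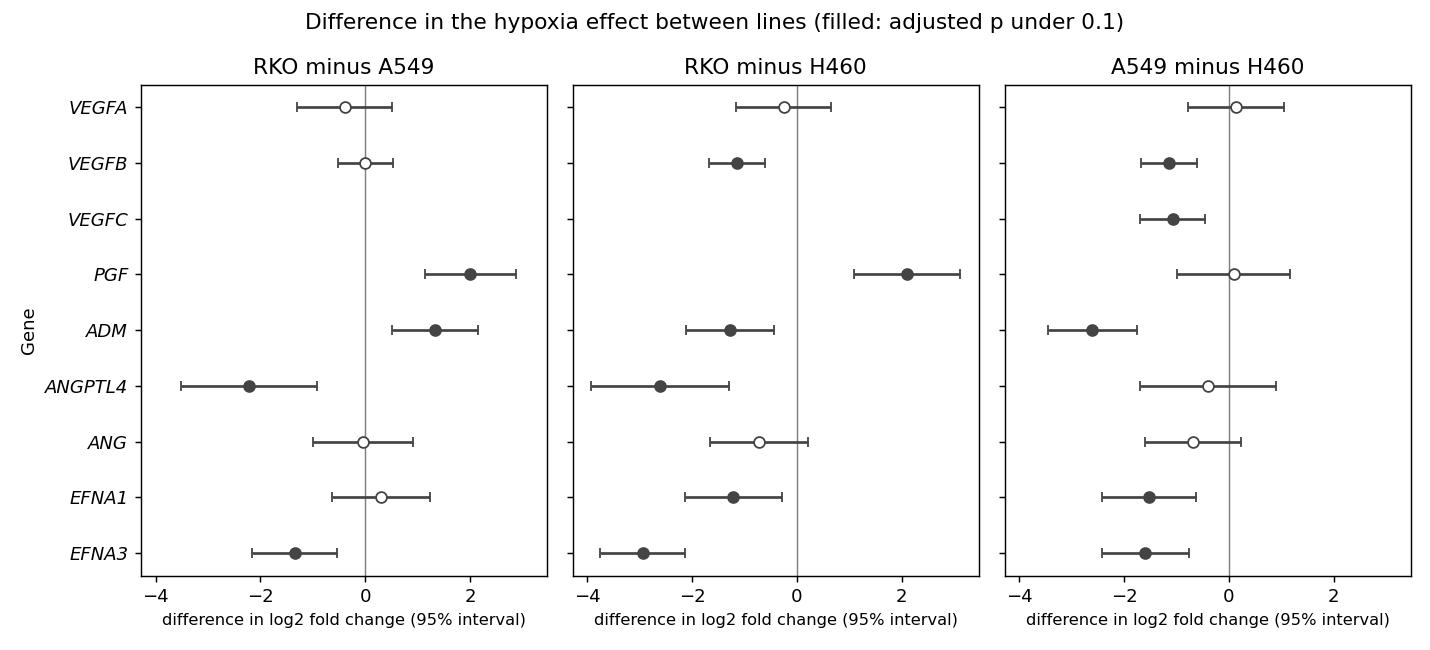
Difference between 2 lines in the log2 fold change of each gene, with its 95% interval, for the 3 pairs of lines. Filled points had an adjusted p under 0.1, and VEGFC is shown for A549 minus H460 alone because it was at the floor in RKO. VEGFA and ANG are open in all 3 panels, while ADM and EFNA3 are filled in all 3.

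Counted over the members, the hypoxia effect differed between RKO and A549 for 4 of 8 (14.6% of all genes), between RKO and H460 for 6 of 8 (37.6%) and between A549 and H460 for 5 of 9 (36%). Over single left-out libraries, the RKO minus A549 difference ranged from 1.44 to 2.41 for PGF and from 0.89 to 1.96 for ADM. It ranged from -2.82 to -1.17 for ANGPTL4 and from -1.82 to -0.66 for EFNA3. Calls lost in such fits are given with each gene above. The comparisons of line pairs share libraries, since each line enters 2 of them. Levels differed between lines for 23 of 27 combinations of member and line pair in normoxia and for 17 of 27 in hypoxia, VEGFC in RKO included. In normoxia the calls were 6 of 9 for RKO and A549 (60.2% of all genes), 9 of 9 for RKO and H460 (61.9%) and 8 of 9 for A549 and H460 (52.1%). In hypoxia they were 6 of 9 (60.5%), 7 of 9 (65.7%) and 4 of 9 (62.7%). The drop between A549 and H460 came from VEGFB, VEGFC, ADM and ANGPTL4, which were called different in normoxia and not in hypoxia. The change in this difference was itself called for VEGFB, VEGFC and ADM. For ANGPTL4 it was not (-0.39, edgeR adjusted p = 0.667), the level differences being 1.10 in normoxia and 0.70 in hypoxia on the log2 scale.

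Of the signaling receptors, FLT1 and KDR were at or near 0 in all libraries, and FLT4, the VEGFC receptor, was at 1.93 to 2.47 RPKM in H460 cells, 0.384 to 0.608 RPKM in A549 cells and at most 0.0208 RPKM in RKO cells. FLT4 was not called in A549 (log2 fold change 0.09 ± 0.34, SE, adjusted p = 0.920) or in H460 (-0.13 ± 0.14, adjusted p = 0.420) and was not tested in RKO. FLT1 had 0 reads in RKO and A549 cells, and in H460 cells 2 and 3 reads in normoxia and 26 and 41 in hypoxia, where it was called higher at up to 0.119 RPKM. KDR stayed at or under 0.105 RPKM in every library. The co-receptors NRP1 and NRP2 were highest in A549 cells, at 55.5 to 65.0 RPKM and 29.8 to 59.5 RPKM, with no call there. NRP1 went up in RKO cells, from 0.503 and 0.433 RPKM to 3.53 and 2.97 RPKM (log2 fold change 2.73 ± 0.24, SE, adjusted p = 7.10e-05). In H460 cells NRP1 and NRP2 were down-regulated, with log2 fold changes of -0.71 ± 0.16 (adjusted p = 0.00188) and -0.70 ± 0.23 (adjusted p = 0.0173).

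The ADM receptor gene CALCRL was at most 0.663 RPKM in any library. It was down-regulated in H460 cells, from 115 and 94 reads to 16 and 33 reads (log2 fold change -1.88 ± 0.32, SE, adjusted p = 0.000218). Its partner RAMP1 was at 17.3 to 21.6 RPKM in RKO cells, with no called change, RAMP2 was at most 0.812 RPKM and RAMP3 had 0 reads throughout. Among the EPHA receptors, EPHA1 was at or under 0.007 RPKM. EPHA2 was the most abundant, at 113 to 170 RPKM in RKO, 49.8 to 81.9 RPKM in A549 and 18.8 to 32.4 RPKM in H460, with no call in any line. It passed the edgeR adjusted p and missed the fold minimum in RKO (fold 1.35, adjusted p = 0.0491) and H460 (fold 1.48, adjusted p = 0.000299). EPHA4 was up-regulated in H460 cells, from 8.37 and 7.46 RPKM to 23.2 and 21.1 RPKM (log2 fold change 1.47 ± 0.09, SE, adjusted p = 8.27e-08).

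Of 54 further genes of these pathways, IL8 being listed in the files as CXCL8, 10 of the 21 tested in RKO cells were called higher and 0 lower, against 18.8% and 15.1% of all tested genes. In A549 cells 4 of 32 were higher and 0 lower, against 2.22% and 0.456%. In H460 cells 15 of 36 were higher and 6 lower, against 24.6% and 27.3%. At an unadjusted p under 0.05, 1 gene was lower in RKO and 2 in A549. Their median log2 fold change was 0.53, 0.12 and 0.26 in the 3 lines, below that of the members in each. Among those with the largest called changes at a mean of at least 100 reads were NRP1, EFNA2 (log2 fold change 1.63 ± 0.30, SE) and RNASE4 in RKO. In A549 they included PDGFB (2.56 ± 0.62, edgeR adjusted p = 0.0970), a growth factor, and the ribonuclease RNASE4. PDGFB replicates in A549 spread widely, at 2.97 ± 2.29 RPKM in normoxia and 17.8 ± 14.0 RPKM in hypoxia (SD, n = 2). In H460 the largest changes included PDGFA (6.04 ± 0.12) and RNASE4, and the lowest were EDN1 (-1.02 ± 0.22), NRP1 and NRP2. PDGFA went from 5.60 and 5.09 RPKM to 367 and 342 RPKM in H460 cells, where the highest member, ANGPTL4, had a log2 fold change of 3.88.

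Over the 12 libraries, the gene whose log2 CPM followed each member most closely was found among the 11131 genes outside the members that were tested in all lines and had a mean of at least 100 reads over the libraries, as a description without a test, since the libraries share line and oxygen condition. VEGFA was most like GLB1 (Pearson's r = 0.98) and FAM214B (0.97), VEGFB like HINFP (0.98) and PDLIM2 (0.97), and PGF like MICB and NEO1 (both 0.99). ADM was most like ABTB1 (0.99) and MANBA (0.98), and ANGPTL4 like ITGA5 (0.95) and HSD17B11 (0.94). ANG was most like RNASE4 (0.98), with which it overlaps, and RNF215 (0.97). EFNA1 was most like LINC00997 and IFT172 (both 0.99), and EFNA3 like NAB2 and DHRS13 (both 0.98). No other member was among these genes, because members were left out of the search, and VEGFC was not searched because it was not tested in RKO.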

How the data were processed

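Poly(A)+ RNA-seq counts of 12 libraries were compared, 2 for each of 3 cell lines in normoxia and hypoxia. Per the labels and the study's methods, the authors trimmed 3′ ends for quality, aligned strand-specific reads with TopHat2 2.0.13 to GRCh37/hg19, removed alignments of mapping quality under 10, marked duplicates with Picard 1.129 and counted exon reads with HTSeq 0.6.1 in reverse-stranded mode. The authors deposited these counts and an RPKM table, in which each value is the count per kilobase of gene length, scaled by the summed counts of the library. Reads shared by overlapping or near-identical genes could be lost in the counting. There were 0 unused columns of per-sample values.

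The hypoxia effect was estimated line by line from 4 libraries, by a quasi-likelihood test (edgeR 4.0.16, R 4.3.3) after TMM scaling, over genes above 0.5 CPM in 2 or more of them. Calls needed a Benjamini-Hochberg adjusted p under 0.1 and a fold change over 1.5. Differences between lines, in effect or in level, came from 1 joint fit of the 12 libraries, so a difference in effect can depart slightly from the subtraction of 2 single-line values. Differences in effect needed the adjusted p alone. The standard error is the size of the log2 fold change divided by the root of F, and intervals are 95%. With 2 samples per group, p-values of the single-line fits rest on the spread between those samples. edgeR moderates this spread for each gene with that of the other tested genes. In the joint fit all groups share 1 estimate of the spread for each gene. A difference between 2 lines thus carries the spread of the remaining line as well. Levels are TMM-scaled RPKM. Alternatives were limma 3.58.1 on log2 RPKM, DESeq2 1.42.0, other scalings, filters and thresholds, a replicate block and leaving out each library. The fits were also run on simulated counts with the same fixed spread for all genes, no pairing of replicates and no changed genes in A549. The A549 replicates here spread more and deviated in pairs, so that run does not bear on the A549 calls.

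The labels give every group replicates 1 and 2. Deviations of same-numbered libraries from their group means correlated at 0.36 in RKO, 0.37 in A549 and 0.15 in H460. With 3 pairings all above 0.1, a fit with the replicate number as a block was run as an alternative. The main fits had no block and so ignore the pairing, and the labels do not say what same-numbered libraries share.

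Named besides the 9 members were fixed receptors and neighboring genes, the 3 highest and 3 lowest called pathway genes per line with a mean of at least 100 counts, the 2 genes most like each member, and fixed cell type markers. One pathway gene that this rule names is not reported here by name. COL1A1 and FLT4 were singled out after their values were seen. Members and lists were chosen with earlier results of these data known.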

Additional observations from a re-analysis of the deposited data

Results flagged for a closer look

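The results listed here were set apart because the hypoxia effect of a gene differed between 2 lines in a test of the difference itself (edgeR interaction term, adjusted p under 0.1). Negative values mean a smaller log2 fold change in the line named first. The cause of these differences was not tested. PGF responded more in RKO than in A549 (2.01, adjusted p = 0.0101) and in H460 (2.10, adjusted p = 0.00455). ADM gave 1.33 for RKO minus A549, -1.27 for RKO minus H460 and -2.60 for A549 minus H460, and EFNA3 gave -1.35, -2.94 and -1.59 for the same pairs. ANGPTL4 gave -2.22 for RKO minus A549 and -2.61 for RKO minus H460. Against H460, VEGFB gave -1.14 in RKO and -1.14 in A549, EFNA1 gave -1.22 in RKO and -1.52 in A549, and VEGFC gave -1.07 in A549.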

How the results depend on the processing

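The counts of up-regulated members stayed at 5 or 6 in RKO and at 8 in H460 under every alternative, including each left-out library. In A549 the count of 3 fell to 1 without TMM factors, in limma with either pseudocount (1 and 1) and at an adjusted p under 0.05 (1), and was 5 with the replicate block. Single left-out libraries changed it as well. All genes called higher in A549 went from 316 to 151 without TMM factors, 131 and 106 in limma and 144 at an adjusted p under 0.05. With the block they numbered 1189. The 4 effects that differed between RKO and A549 became 2 and 2 in limma, and some left-out libraries lowered their number as well. The replicate block changed no other call among the member effects and their differences between lines.

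Called differences in level between lines were not followed gene by gene. No called hypoxia effect of a member and no called difference in effect changed direction. Uncalled values near 0 did, with these log2 differences. Without TMM factors and in limma with pseudocounts of 0.1 and 1, the effect of VEGFA in RKO minus H460 was 0.13, 0.13 and 0.10, and that of ANG in RKO minus A549 was 0.10, 0.22 and 0.10 (0.066 with the replicate block). In the same order, hypoxia levels of A549 minus H460 were 0.18, 0.17 and 0.16 for VEGFB, 0.20, 0.20 and 0.18 for VEGFC and 0.17, 0.086 and 0.086 for ADM. ADM in hypoxia was 0.13, 0.20 and 0.19 for RKO minus A549 (0.059 with the replicate block) and 0.30, 0.28 and 0.28 for RKO minus H460. The effect of VEGFB in RKO minus A549 was -0.034 with RLE factors and -0.034 in DESeq2.

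Over left-out libraries, differences in effect ranged from -0.87 to 0.33 (VEGFA), -0.21 to 0.26 (VEGFB), -0.47 to 0.55 (ANG) and -0.29 to 0.81 (EFNA1) for RKO minus A549. For A549 minus H460 they ranged from -0.59 to 0.62 (VEGFA), -0.31 to 0.67 (PGF) and -1.44 to 0.21 (ANGPTL4). The A549 effects of PGF and EFNA1 ranged from -0.68 to 0.30 and from -0.26 to 0.82. Hypoxia levels of VEGFB ranged from -0.066 to 0.41 (RKO minus A549), -0.055 to 0.17 (RKO minus H460) and -0.35 to 0.13 (A549 minus H460), those of VEGFC from -0.24 to 0.020 (A549 minus H460), and those of ADM from -0.45 to 0.62, -0.41 to 0.15 and -0.73 to 0.34 in the order of pairs used for VEGFB. The cause of these changes was not tested.

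Leaving out the TMM factors moved the median log2 fold change of all genes in H460 by -0.35 and the H460 split from 3467 higher and 3837 lower to 2075 higher and 5758 lower. In A549 the block moved the count of all genes called higher from 316 to 1189. With 2 libraries per group, the ADM effect in A549 was not separated from the spread between replicates without the block (adjusted p = 0.324) and was with it (adjusted p = 0.00684). PGF in the lung lines (15 to 95 reads) is further limited by depth.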

Other observations

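Among 10 listed inhibitors of angiogenesis, 4 were tested in RKO, 9 in A549 and 8 in H460 cells. The semaphorins SEMA3B and SEMA3F, secreted guidance proteins that bind neuropilins, were up-regulated in RKO, with log2 fold changes of 1.31 ± 0.46 (SE, edgeR adjusted p = 0.0440, mean of 29.8 reads) and 0.80 ± 0.19 (adjusted p = 0.00775). In H460 SEMA3B (1.82 ± 0.09, adjusted p = 1.51e-08) and SEMA3A (0.92 ± 0.10, adjusted p = 5.90e-06) were up-regulated, and THBS1, thrombospondin 1, was down-regulated (-1.57 ± 0.26, adjusted p = 0.000207, mean of 95.5 reads). In A549 0 were called by edgeR, with 3 higher and 1 lower at an unadjusted p under 0.05. Of the 9 listed angiopoietins, angiopoietin-like proteins and TIE receptors, 1 was tested in each line, and it was called higher in RKO (TIE1, 3.08 ± 0.51, adjusted p = 0.00123, mean of 22.8 reads) and in H460 (ANGPTL6, 3.88 ± 0.42, adjusted p = 5.17e-06, mean of 37.8 reads). These genes were named after their values were seen.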
